A study of Mus musculus with 12 samples.

Results

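The G1 cyclins, their catalytic partners and the pocket proteins were followed as a set of 10 genes, 10 of the 26608 genes listed in the count data. They were chosen by name and comprised the D-type cyclins *Ccnd2* and *Ccnd3*, the E-type cyclins *Ccne1* and *Ccne2*, the cyclin-dependent kinases *Cdk4*, *Cdk6*, and *Cdk2*, and the pocket proteins *Rb1*, *Rbl1* (p107), and *Rbl2* (p130). All 10 passed the filter on low counts. The samples were CD4+ YFP(FOXP3)- T cells, sorted from spleen and cervical and inguinal lymph nodes pooled within a mouse. WT mice carried the Foxp3Cre allele alone, and DKO-moderate and DKO-severe mice carried it with *Tet2* and *Tet3* flanked by loxP sites on both copies (Foxp3Cre Tet2/3 fl/fl). All mice were 14 weeks old and on the B6 background, with 4 libraries per group, each from 1 mouse. The 2 DKO groups share this genotype, and the study told them apart by the number of cells in spleen and lymph nodes, so that the grouping itself reflects how far the lymphoid organs had expanded. The Cre is a fusion with YFP expressed from the *Foxp3* locus and so acts mainly in cells that express or once expressed *Foxp3*, but this driver is also known for low, sporadic activity in other cells. The YFP(FOXP3)- gate can hold conventional CD4+ T cells and, in DKO mice, former Treg cells, and the share of its cells that had lost *Tet2* and *Tet3* was not measured here.

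A resting T cell is held in G0 or G1 by pocket proteins, which bind E2F transcription factors and silence the genes of DNA replication. Mitogenic signals raise D-type cyclins, which bring CDK4 and CDK6 to the pocket proteins. E-type cyclins with CDK2 complete their phosphorylation, E2F is released, and the cell enters S phase. *Ccne1*, *Ccne2*, and *Rbl1* are themselves classic E2F targets, and p130 is the pocket protein most closely tied to quiescence. *Ccnd1*, the D-type cyclin of many other tissues, is not used by most lymphocytes and was at 0.02 to 1.67 CPM over the 12 libraries.

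Reads on genes ranged from 29254260 to 42133536 per library. Summed T cell marker genes were at 4410 to 5019 CPM in WT, 5148 to 5263 CPM in DKO-moderate mice, and 4226 to 4661 CPM in DKO-severe. Some libraries also held transcripts of other cells. The summed level of 11 neutrophil genes was 0 to 2.10 CPM in WT and 0.160 to 8.61 CPM in DKO-moderate, but 2254, 830, 24.0, and 10.4 CPM in DKO-severe 1 to 4. Summed B cell genes reached 200 CPM in WT 3, at most 2.94 CPM in the other WT libraries, at most 6.81 CPM in DKO-moderate mice, and 52.2 to 314 CPM in DKO-severe. Plasma cell genes summed to 51.2 to 198 CPM in DKO-severe and 2.84 to 26.1 CPM in DKO-moderate mice, monocyte and macrophage genes to 77.2 to 388 and 15.7 to 64.1 CPM, and erythroid genes to 11.5 to 47.5 and 1.33 to 11.6 CPM, and in WT these 3 sums were highest in WT 3 (89.1, 205, and 20.1 CPM) and at most 1.86, 16.2, and 1.89 CPM in the other libraries. Naive T cell genes summed to 4399 to 5101 CPM in WT, 2463 to 3925 CPM in DKO-moderate mice, and 1655 to 2231 CPM in DKO-severe. The sample labels do not give the sex of the mice. The 4 Y-linked genes summed to 0 CPM in WT 2 and DKO-moderate 2, 0.026 CPM in DKO-moderate 4, and 0.571 CPM in DKO-severe 3. In the other libraries they summed to 370 to 556 CPM, so every group held mice of both sexes. *Tet3* was at 167 to 210 CPM in WT, 90.3 to 185 CPM in DKO-moderate mice, and 87.8 to 102 CPM in DKO-severe, and *Tet2* at 43.3 to 62.2, 34.8 to 57.8, and 56.7 to 65.8 CPM. These values cover whole genes, in which reads from the exons outside the deletion remain, so they are a weak check of the genotype.

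The 3 comparisons made share libraries: both DKO groups are set against the same 4 WT libraries, and each DKO library also enters the comparison of DKO-severe with DKO-moderate. Similar values in 2 of them are therefore not independent. A gene was called when its adjusted p in edgeR's quasi-likelihood test (Benjamini-Hochberg over 16035 genes) was under 0.05. CPM are counts per 1000000 reads after TMM scaling (edgeR's trimmed-mean scaling between libraries), and RPKM divide them by the merged exon length, for levels compared between genes. In whole sorted populations such as these, more cells of a type and more RNA per cell cannot be told apart.

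*Cdk6*, *Ccne2*, and *Ccne1* were the members that rose in DKO-severe, by 4.74-fold, 8.98-fold, and 2.26-fold against WT, while the pocket proteins, *Cdk2*, *Cdk4*, and the D-type cyclins stayed within 0.32 of WT on the log2 scale. In DKO-severe against WT, 3 of 10 members were called, 3 higher and 0 lower, where 52.6% of all genes tested were called (26.6% higher, 25.9% lower). In DKO-moderate against WT, 2 members were called, *Ccne2* and *Cdk6*, both higher, beside 17.1% of all genes (12.3% higher, 4.74% lower). In DKO-severe against DKO-moderate, 4 members were called, *Ccne1*, *Ccne2*, and *Cdk6* higher and *Ccnd3* lower, beside 20.1% of all genes (9.41% higher, 10.7% lower). With library size alone as the scaling, 6 of 10 members and 8216 of 16035 genes were called in DKO-severe against WT, so no order between the share of members and that of all genes is read from these counts. The median log2 fold change of the 10 members was 0.19, 0.19, and 0.09 in the 3 comparisons, beside -0.01, 0.00, and -0.03 over all genes. Groups did not overlap for 5, 2, and 3 members, where 51.9%, 24.8%, and 21.3% of all genes did not overlap.

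**Figure D1:**
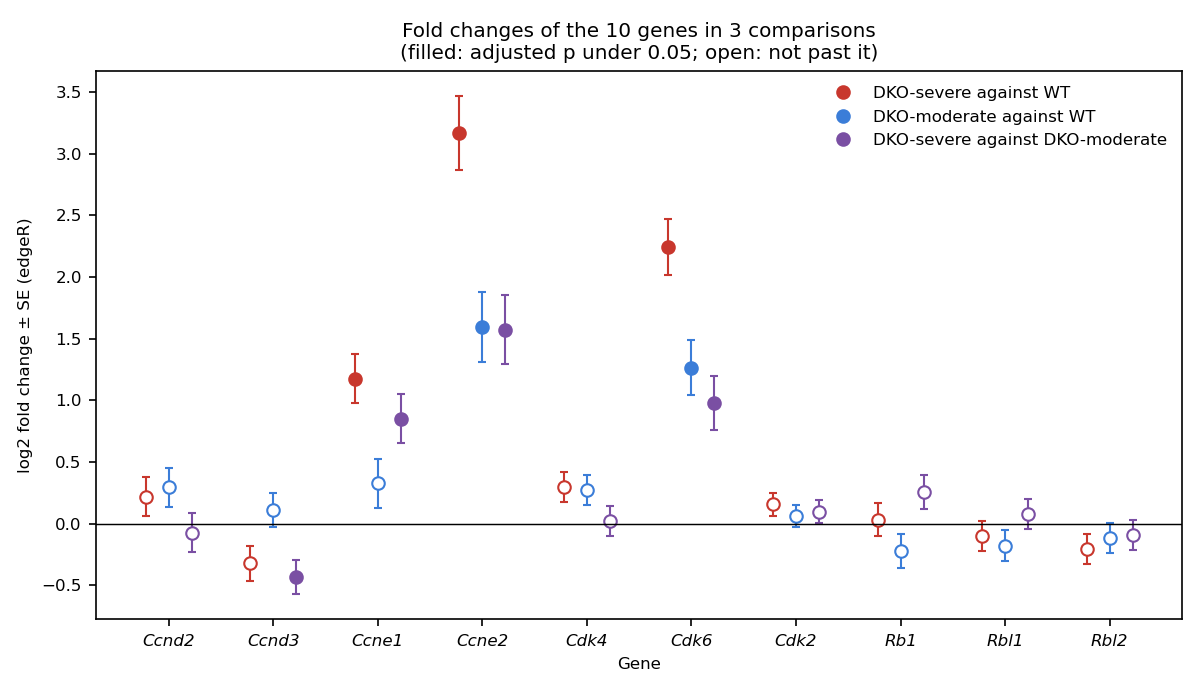
Log2 fold change (y axis, edgeR, with standard error as bars) of the 10 genes (x axis) in the 3 comparisons, filled where the adjusted p was under 0.05 and open where it was not. *Ccne2* (3.17) and *Cdk6* (2.24) in DKO-severe against WT lie above all other points, and the 3 pocket proteins lie between -0.22 and 0.25 in every comparison.

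Per length, *Ccnd2* had the highest mean of the 10 transcripts in every group and *Cdk4* the next, and the libraries of these 2 genes overlapped in DKO-moderate. In WT the order of mean RPKM was *Ccnd2* (57.9), *Cdk4* (37.9), *Rbl2* (26.5), *Ccnd3* (24.6), *Rbl1* (15.6), *Rb1* (13.4), *Cdk2* (8.65), *Ccne1* (3.30), *Cdk6* (0.551), and *Ccne2* (0.505). Libraries overlapped between *Rbl2* and *Ccnd3*, between *Rbl1* and *Rb1*, and between *Cdk6* and *Ccne2*, so these neighbours are not ranked. WT cells thus held D-type cyclins, CDK4, and all 3 pocket proteins at readily measured RNA levels, and *Cdk6* and *Ccne2* near the bottom of the set. In DKO-severe the mean RPKM of *Ccne1*, *Ccne2*, and *Cdk6* were 7.47, 4.54, and 2.61, and the libraries of *Ccne1* then overlapped those of *Cdk2* (9.64 RPKM) above and of *Ccne2* below. The first 7 genes of the WT order held ranks 1 to 7 in both DKO groups as well, with *Ccnd3* above *Rbl2* in DKO-moderate, where the libraries of this pair, and those of *Rb1* and *Cdk2*, overlapped.

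**Figure D2:**
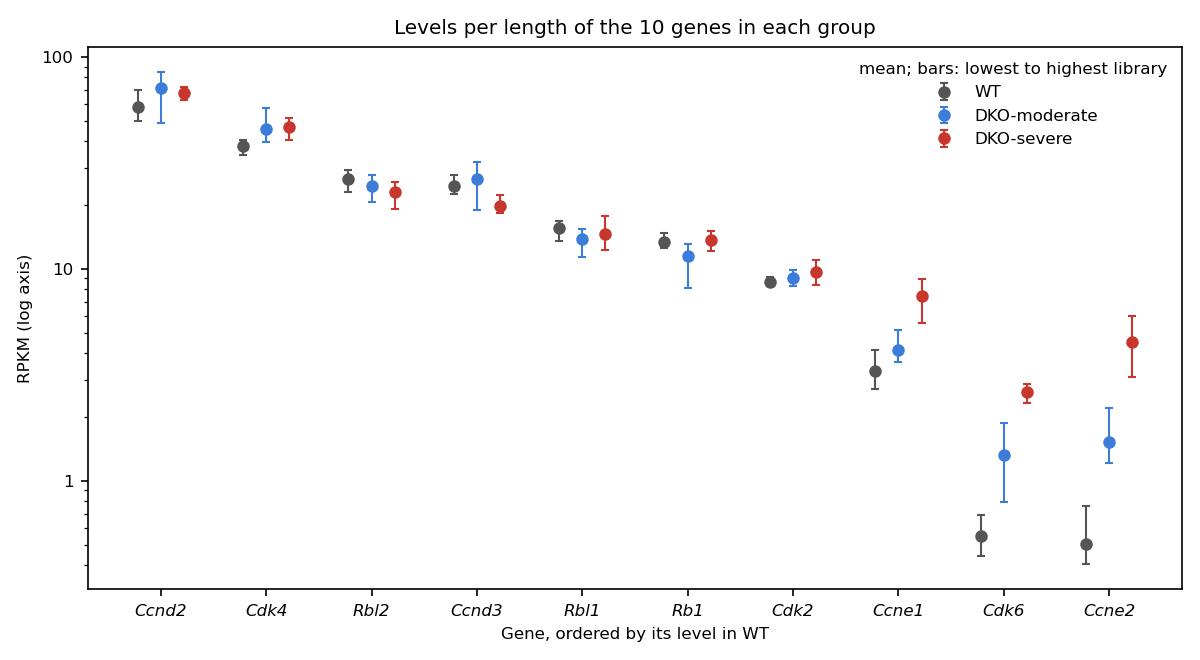
Mean RPKM of each gene in WT, DKO-moderate, and DKO-severe on a log axis, with bars from the lowest to the highest of 4 libraries and genes ordered by their level in WT. The groups sit close together from *Ccnd2* to *Cdk2* and spread apart for *Ccne1*, *Cdk6*, and *Ccne2*, which in WT average 3.30, 0.551, and 0.505 RPKM.

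*Ccnd2* (chromosome 6, 127125162-127152193, minus strand, GRCm38) and *Ccnd3* (chromosome 17, 47505051-47599691, plus strand) encode the D-type cyclins that lymphocytes use to activate CDK4 and CDK6. *Ccnd2* was at 467, 501, 653, and 560 in WT 1 to 4, 801, 458, 753, and 660 in DKO-moderate 1 to 4, and 600, 681, 591, and 666 in DKO-severe 1 to 4 (all CPM). The 3 groups overlapped, with the widest spread in DKO-moderate, where replicate 2 was the lowest of all 12 libraries. The log2 fold change was 0.22 in DKO-severe against WT (SE 0.16, edgeR adjusted p = 0.264), 0.29 for DKO-moderate against WT (edgeR adjusted p = 0.225), and -0.07 in DKO-severe against DKO-moderate (edgeR adjusted p = 0.764).

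*Ccnd3* was at 198, 208, 244, and 215 in WT, 279, 166, 254, and 235 in DKO-moderate mice, and 165, 196, 168, and 162 in DKO-severe (all CPM). Every DKO-severe library was thus below every WT library, by a narrow margin between DKO-severe 2 and WT 1, and DKO-moderate 2 lay among the DKO-severe libraries. Against WT the log2 fold change in DKO-severe was -0.32 (SE 0.14, edgeR adjusted p = 0.0678), short of the threshold. Against DKO-moderate it was -0.43 (SE 0.14, edgeR adjusted p = 0.0458), a call that held in 6 of 23 alternatives, with adjusted p-values from 0.0042 to 0.423. For DKO-moderate against WT the value was 0.11 (edgeR adjusted p = 0.62). *Ccnd3* is thus the member with the least certain call.

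*Ccne1* (chromosome 7, 38097984-38107534, minus strand) encodes cyclin E1, an activator of CDK2 at the entry to S phase. Its level was 10.98, 7.42, 7.24, and 9.54 CPM in WT, 10.8, 9.93, 9.64, and 13.7 CPM in DKO-moderate mice, and 23.7, 14.8, 17.2, and 23.8 CPM in DKO-severe. All 4 DKO-severe libraries lay above all libraries of the other groups, while WT and DKO-moderate overlapped. The log2 fold change was 1.18 in DKO-severe against WT (SE 0.20, edgeR adjusted p = 0.000459) and 0.85 in DKO-severe against DKO-moderate (SE 0.20, edgeR adjusted p = 0.0135). For DKO-moderate against WT the value was 0.33 (SE 0.20, edgeR adjusted p = 0.281).

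*Ccne2* (chromosome 4, 11191351-11204779, plus strand) encodes cyclin E2, the second activator of CDK2. It was at 1.41, 1.58, 2.645, and 1.42 in WT, 4.25, 4.35, 5.02, and 7.68 in DKO-moderate mice, and 16.7, 10.7, 15.2, and 20.8 in DKO-severe (all CPM). These values rest on 49 to 92 reads per library in WT, 138 to 290 in DKO-moderate mice, and 353 to 871 in DKO-severe. The 3 groups did not overlap, and the levels rose in the order WT, DKO-moderate, DKO-severe. The log2 fold change was 3.17 in DKO-severe against WT (SE 0.30, edgeR adjusted p = 1.15e-05), 1.59 for DKO-moderate against WT (SE 0.29, edgeR adjusted p = 0.00324), and 1.57 in DKO-severe against DKO-moderate (SE 0.28, edgeR adjusted p = 0.00526). Added per length, the E-type cyclins amounted to 3.81 ± 0.572 RPKM in WT, 5.66 ± 1.13 RPKM in DKO-moderate mice, and 12 ± 2.84 RPKM in DKO-severe (mean ± SD, n = 4), of which *Ccne2* made up 13.7%, 26.6%, and 37.7%.

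*Cdk6* (chromosome 5, 3341485-3531008, plus strand) and *Cdk4* (chromosome 10, 127063534-127067920, plus strand) encode the kinases that D-type cyclins activate. *Cdk6* was at 6.18, 7.39, 7.65, and 9.65 in WT, 19.9, 26.3, 16.9, and 11.1 in DKO-moderate mice, and 34.3, 32.5, 40.2, and 39.2 in DKO-severe (all CPM). Again the 3 groups did not overlap, although DKO-moderate 4 lay close to the highest WT library. The log2 fold change was 2.24 in DKO-severe against WT (SE 0.23, edgeR adjusted p = 1.65e-05), 1.26 for DKO-moderate against WT (SE 0.22, edgeR adjusted p = 0.00299), and 0.98 in DKO-severe against DKO-moderate (SE 0.22, edgeR adjusted p = 0.0115).

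*Cdk4* was at 131, 125, 112, and 124 in WT, 132, 148, 128, and 187 in DKO-moderate mice, and 164, 132, 142, and 168 in DKO-severe (all CPM). The lowest DKO-severe library and the highest WT library differed by less than 1 CPM, so the groups were apart only by that margin. Against WT the log2 fold change of DKO-severe was 0.30 (SE 0.12, edgeR adjusted p = 0.0584), which missed the threshold here and passed it in 9 of 23 alternatives, with adjusted p-values from 0.0089 to 0.518. For DKO-moderate against WT it was 0.27 (edgeR adjusted p = 0.142), and in DKO-severe against DKO-moderate 0.02 (edgeR adjusted p = 0.915). *Cdk4* kept 80.4%, 81.3%, and 79.1% of the reads per length of the 3 kinases in WT, DKO-moderate, and DKO-severe, and *Cdk6* held 1.18%, 2.43%, and 4.47%.

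*Cdk2* (chromosome 10, 128697939-128705031, minus strand), the partner of the E-type cyclins, ranged from 51.6 to 56.9 CPM in WT, from 51.5 to 61.4 CPM in DKO-moderate, and from 52.4 to 68.5 CPM in DKO-severe. The groups overlapped, and the log2 fold change of 0.16 in DKO-severe against WT (SE 0.09, edgeR adjusted p = 0.17) did not pass. It passed in 4 of 23 alternatives, with adjusted p-values from 0.0069 to 0.299. The measured change of the cyclin E partner was thus 0.16 in DKO-severe and 0.06 in DKO-moderate, beside 1.18 and 3.17 for its cyclins in DKO-severe.

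**Figure D3:**
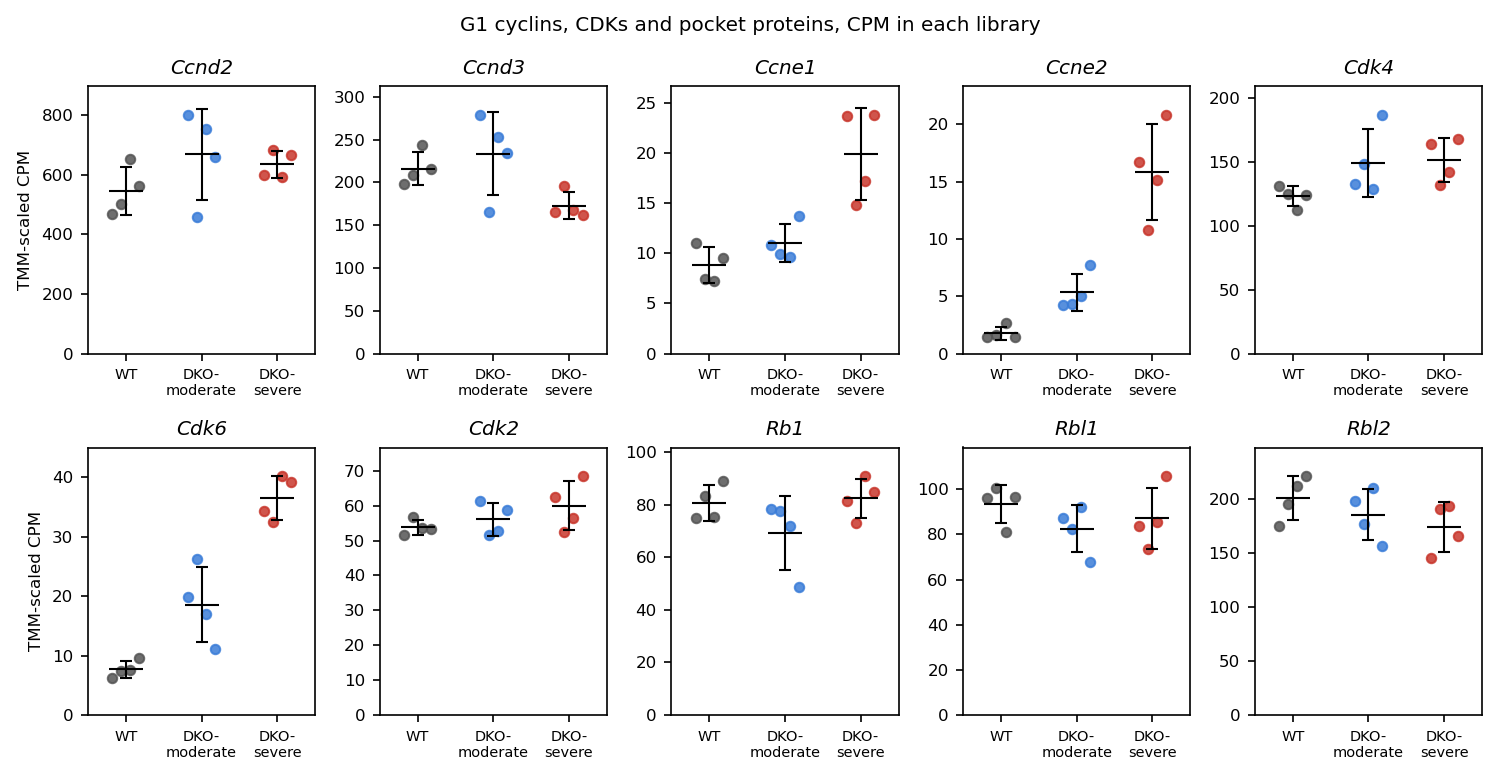
TMM-scaled CPM (y axes, each from 0) of the 10 genes in each library of WT, DKO-moderate, and DKO-severe, with the mean and SD of 4 libraries as line and bars. *Ccne2* and *Cdk6* step up from WT through DKO-moderate to DKO-severe without overlap. For *Ccne1*, DKO-severe (14.8 to 23.8 CPM) lies above the other groups, which overlap each other. The lowest *Rb1* point is DKO-moderate 4 (48.7 CPM).

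None of the 3 pocket protein genes was called in any comparison. *Rb1* (chromosome 14, 73183673-73325822, minus strand), the retinoblastoma protein, was at 75.0, 83.2, 75.5, and 89.2 in WT, 78.5, 77.8, 72.1, and 48.7 in DKO-moderate mice, and 81.6, 73.0, 90.9, and 84.7 in DKO-severe (all CPM). The groups overlapped, and DKO-moderate 4 stood apart as the lowest library. Its log2 fold change was 0.03 in DKO-severe (SE 0.14, edgeR adjusted p = 0.853) and -0.22 in DKO-moderate (edgeR adjusted p = 0.286) against WT.

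*Rbl1* (chromosome 2, 157145893-157204534, minus strand), which encodes p107, was at 95.9, 100.3, 81.0, and 96.4 in WT, 87.4, 82.5, 92.3, and 68.0 in DKO-moderate mice, and 83.7, 73.7, 85.5, and 105.8 in DKO-severe (all CPM). The log2 fold change of this E2F target was -0.10 in DKO-severe (SE 0.12, edgeR adjusted p = 0.511) and -0.18 in DKO-moderate (edgeR adjusted p = 0.335) against WT, and DKO-severe held both a library below and one above the WT range. *Rbl2* (chromosome 8, 91070057-91123844, plus strand), which encodes p130, was at 175, 195, 212, and 221 in WT, 198, 176, 210, and 157 in DKO-moderate mice, and 145, 191, 194, and 165 in DKO-severe (all CPM). Its log2 fold change was -0.21 in DKO-severe (SE 0.12, edgeR adjusted p = 0.162) and -0.12 in DKO-moderate (edgeR adjusted p = 0.539) against WT, with overlapping groups. The signs of the small *Rbl1* and *Rbl2* values are not settled: with library size alone as the scaling, *Rbl1* was 0.09 in DKO-severe against WT, and *Rbl2* was 0.02 in DKO-severe against DKO-moderate. DKO-moderate 4, the lowest library of its group for *Rb1*, *Rbl1*, *Rbl2*, and *Cdk6*, was the highest of its group for *Ccne1*, *Ccne2*, and *Cdk4*. DKO-moderate 2 and DKO-moderate 4 were the libraries of this group with Y-linked sums of at most 0.026 CPM. The part of sex in their values was not tested.

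Because a ratio of 2 genes within a library does not depend on how libraries are scaled, the paralogues were also compared as ratios of reads per kilobase of exon. The 12 ratio comparisons were tested with exact two-sided permutation tests, which with 4 against 4 libraries cannot go below p = 0.029. *Ccne2* to *Ccne1* had a geometric mean of 0.150 in WT (0.0977 to 0.278), 0.361 in DKO-moderate (0.299 to 0.427), and 0.604 in DKO-severe (0.536 to 0.671), with no overlap between groups. *Ccnd2* to *Ccnd3* was 2.34 in WT (2.20 to 2.501), 2.66 in DKO-moderate (2.58 to 2.77), and 3.43 in DKO-severe (3.25 to 3.84), again with no overlap, although neither gene was called against WT by itself. All 6 of these differences had an exact permutation p = 0.029 (adjusted p = 0.043), with log2 differences from WT of 2.01 and 1.27 for the E-type pair and of 0.55 and 0.19 for the D-type pair, in DKO-severe and DKO-moderate.

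*Cdk6* to *Cdk4* had a geometric mean of 0.0144 in WT (0.0109 to 0.0181), 0.0279 in DKO-moderate (0.0138 to 0.0412), and 0.0562 in DKO-severe (0.0488 to 0.0658). DKO-severe was above both other groups without overlap (exact permutation p = 0.029, adjusted p = 0.043 for each), and DKO-moderate overlapped WT through replicate 4 (exact permutation p = 0.086, adjusted p = 0.11). *Rbl1* to *Rbl2* was 0.588 in WT, 0.562 in DKO-moderate mice, and 0.632 in DKO-severe, and no comparison of it passed (exact permutation p = 0.54, 0.57, and 0.37 for DKO-severe against WT, DKO-moderate against WT, and DKO-severe against DKO-moderate). In each pair with a shift, the less abundant paralogue of the kinases and of the E-type cyclins gained, whereas among the D-type cyclins the more abundant one did.

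**Figure D4:**
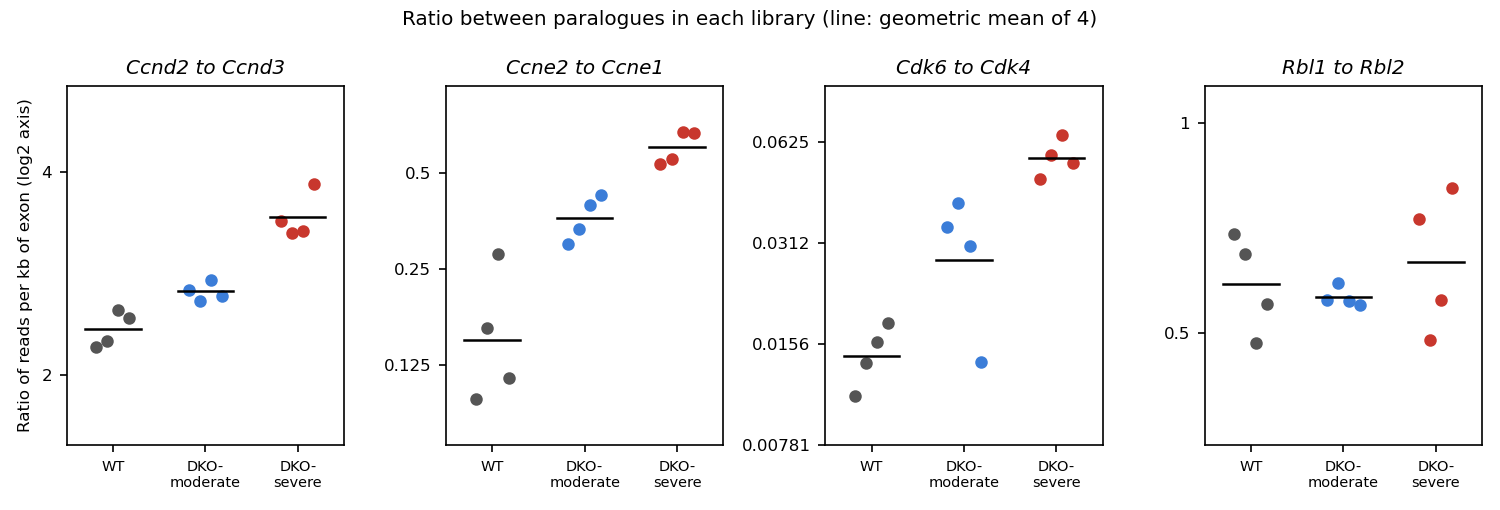
Ratio of reads per kilobase of exon between paralogues (log2 axes) in each library, with lines at the geometric mean of 4. *Ccnd2* to *Ccnd3* and *Ccne2* to *Ccne1* separate all 3 groups, *Cdk6* to *Cdk4* separates DKO-severe (0.0488 to 0.0658) from the rest with DKO-moderate 4 among WT, and *Rbl1* to *Rbl2* overlaps throughout.

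Transcripts of other cells moved with DKO-severe, and all 11 neutrophil genes were called higher there against WT, as were 1 of 8 B cell, 2 of 5 plasma cell, 1 of 7 monocyte and macrophage, and 2 of 6 erythroid genes. The sums of B cell, plasma cell, and monocyte and macrophage genes were higher in every DKO-severe library than in every DKO-moderate library, and those of erythroid genes overlapped in 1 library of each group. The part of plasma cell, monocyte and macrophage, and erythroid transcripts in the members' levels was not tested. *Cdk6* was at 40.2 and 39.2 CPM in DKO-severe 3 and 4, with neutrophil sums of 24.0 and 10.4 CPM, and at 34.3 and 32.5 CPM in DKO-severe 1 and 2, with sums of 2254 and 830 CPM. *Ccne2* was at 15.2 and 20.8 CPM in the former pair and at 16.7 and 10.7 CPM in the latter. *Ccne1* was highest in DKO-severe 4 (23.8 CPM) and DKO-severe 1 (23.7 CPM), which have the lowest and the highest neutrophil sum of the group. Over 4 libraries these values are a description. Without WT 3, DKO-severe 1, and DKO-severe 2, libraries chosen after their marker sums were seen, the same 3 genes were called against WT, with log2 fold changes of 3.61 for *Ccne2*, 2.36 for *Cdk6*, and 1.14 for *Ccne1*, and 3 members were called in DKO-severe against DKO-moderate, since *Ccnd3* did not pass (edgeR adjusted p = 0.101). DKO-severe 3 and 4, kept in that fit, still had B cell sums of 52.2 and 136 CPM, beside at most 6.81 CPM in DKO-moderate. Where the mean neutrophil and B cell levels were added to the fit as covariates, the 3 genes were still called against WT, but no member was called in DKO-severe against DKO-moderate, where the values were 1.67 for *Ccne2* (edgeR adjusted p = 0.0682), 1.09 for *Cdk6* (edgeR adjusted p = 0.149), and 0.89 for *Ccne1* (edgeR adjusted p = 0.144), and 188 of all genes were called in place of 3217. Neutrophil sums were 10.4 CPM or more in every DKO-severe library and at most 8.61 CPM in every other library. With these covariates, reads of other cells and the difference between groups cannot be told apart. Calls lost in this fit, here and below, are therefore not read as absent changes. Of 7 naive T cell genes, 6 fell in DKO-severe and 3 in DKO-moderate against WT, and their part in the members' levels was not tested.

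**Figure D5:**
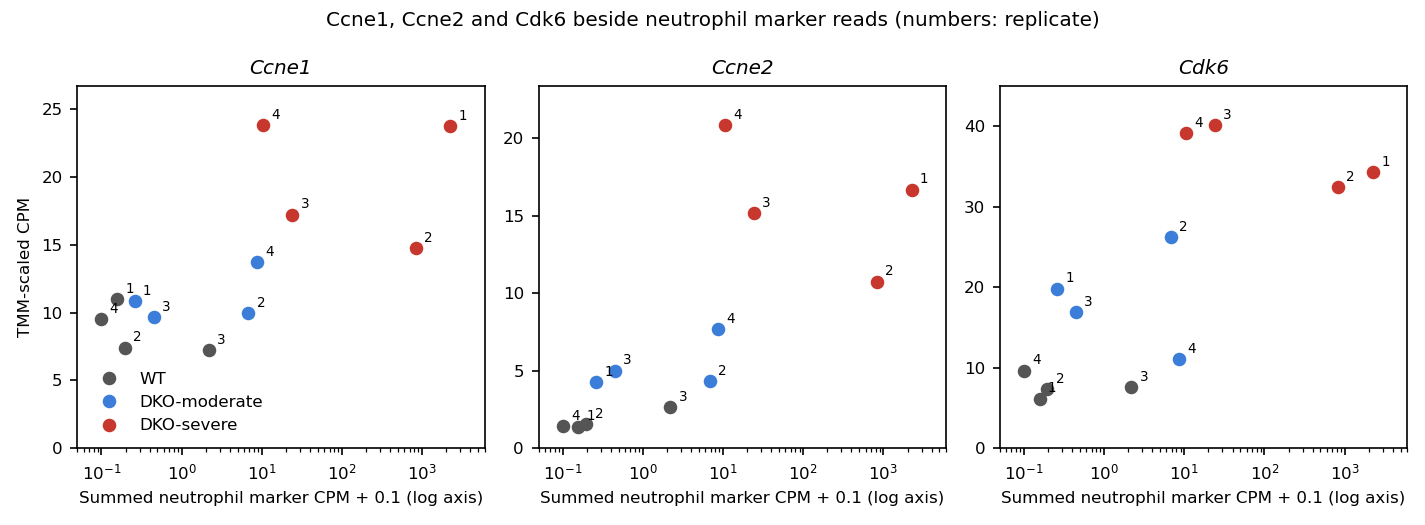
TMM-scaled CPM of *Ccne1*, *Ccne2*, and *Cdk6* (y axes) against the summed CPM of 11 neutrophil genes plus 0.1 (log x axes) in the 12 libraries, numbered by replicate. Within DKO-severe, *Cdk6* is higher in replicates 3 and 4 (neutrophil sums of 24.0 and 10.4 CPM) than in replicates 1 and 2 (2254 and 830 CPM).

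Promoter sequences were searched for the letters of the E2F element, in genes that rose and in members that were not called. RefSeq windows on GRCm38.p6 were found for 7 of the 10 genes, *Ccnd3* with 2 starts, and *Ccnd2*, *Ccne2*, and *Rb1* were not among them. These starts can differ from the GENCODE gene coordinates given above. The *Cdk6* window lies inside the gene span given above, and the *Ccne1* window overlaps the 5′ end of its span. Sequence before other starts of these genes was not searched. The 250 bases before the start are given 5′ to 3′ on the strand of the gene, in lower case, with any E2F element in capitals, for the risen genes *Ccne1* and *Cdk6* and for *Rbl1* and *Cdk2*, which were not called.
Ccne1, chr7:38107491-38107740, minus strand: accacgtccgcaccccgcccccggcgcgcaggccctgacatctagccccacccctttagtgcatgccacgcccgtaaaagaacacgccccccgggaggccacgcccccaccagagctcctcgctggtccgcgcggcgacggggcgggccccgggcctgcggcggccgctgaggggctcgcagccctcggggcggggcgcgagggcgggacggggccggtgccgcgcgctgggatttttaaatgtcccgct
Cdk6, chr5:3343643-3343892, plus strand: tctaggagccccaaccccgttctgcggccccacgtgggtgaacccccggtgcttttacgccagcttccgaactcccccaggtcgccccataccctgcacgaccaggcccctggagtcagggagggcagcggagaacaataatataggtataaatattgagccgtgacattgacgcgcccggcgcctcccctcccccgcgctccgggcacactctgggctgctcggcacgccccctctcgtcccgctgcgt
Rbl1, chr2:157204535-157204784, minus strand: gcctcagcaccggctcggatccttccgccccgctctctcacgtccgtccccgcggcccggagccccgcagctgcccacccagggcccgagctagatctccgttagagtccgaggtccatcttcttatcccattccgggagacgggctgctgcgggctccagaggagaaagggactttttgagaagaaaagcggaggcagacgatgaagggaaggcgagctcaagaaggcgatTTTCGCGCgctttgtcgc
Cdk2, chr10:128705052-128705301, minus strand: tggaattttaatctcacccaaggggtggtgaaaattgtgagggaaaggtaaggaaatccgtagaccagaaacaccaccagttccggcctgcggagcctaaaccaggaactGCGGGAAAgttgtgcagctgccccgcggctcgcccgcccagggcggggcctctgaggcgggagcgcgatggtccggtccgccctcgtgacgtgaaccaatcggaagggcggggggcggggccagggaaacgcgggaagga
The E2F element was searched on both strands as TTTCCCGC, TTTGGCGC, TTTCGCGC, or TTTGCCGC. It was present in the windows of *Rbl1*, 18 bases before the start, and of *Cdk2*, on the reverse strand, and in 1.86% of 32851 promoter windows of the same length. Neither *Ccne1* nor *Cdk6* had it, nor did *Cdk4*, *Rbl2*, or either *Ccnd3* window. The forkhead element GTAAACA (3.17% of windows) was found once, in the upstream *Ccnd3* window, and the cell cycle homology element, searched as TTTGAA or TTCGAA (17.1% of windows), once, in *Rbl2*. A match of letters is a description of the sequence and says nothing of binding, and its absence says only that these letters are not in this window.

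The other genes of the pathway were taken from lists by role. Their counts stand beside 52.6% of all genes called in DKO-severe against WT (26.6% higher, 25.9% lower). In DKO-moderate against WT 17.1% of all genes were called, and in DKO-severe against DKO-moderate 20.1%. Whether a list held a larger share of calls was not tested. In DKO-severe against WT the list medians on the log2 scale were 0.995 for E2F and DP factors and 2.35 for CDK inhibitors, where all genes had -0.01. Of 10 E2F and DP factors, which pair to bind E2F elements, 7 rose and 0 fell in DKO-severe against WT, 5 rose in DKO-moderate against WT, and 6 were higher in DKO-severe than DKO-moderate. The lowest p-value was that of *E2f7*, an E2F that acts as a repressor, at 0.893, 2.48, and 8.97 CPM in WT, DKO-moderate, and DKO-severe (3.32 on the log2 scale for DKO-severe against WT, SE 0.32, edgeR adjusted p = 1.16e-05). *E2f4*, the E2F most often bound by p107 and p130, had the highest, at 99.6, 107.9, and 100.7 CPM (log2 fold change 0.02, edgeR adjusted p = 0.832). The 3 that were not called were *E2f4*, *E2f5*, and *E2f6*, the latter pair named after their values were seen.

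Of the 7 CDK inhibitors, 4 rose and 2 fell in DKO-severe against WT. *Cdkn2c* (p18), an inhibitor of CDK4 and CDK6, had the lowest p-value and was at 7.56, 21.97, and 48.8 CPM in WT, DKO-moderate, and DKO-severe (log2 fold change 2.69, SE 0.28, edgeR adjusted p = 1.84e-05). The other risen inhibitors, named after their values were seen, were *Cdkn1a* (4.11 on the log2 scale), *Cdkn2a* (3.11), and *Cdkn2b* (2.35). Levels were low for *Cdkn2a* (0.32, 1.39, and 2.76 CPM in WT, DKO-moderate, and DKO-severe) and *Cdkn2b* (0.18, 0.40, and 0.94 CPM). The genes that fell, named after their values were seen, were *Cdkn1b* (p27, log2 fold change -0.55, edgeR adjusted p = 0.00465) and *Cdkn2d* (p19, log2 fold change -0.43, edgeR adjusted p = 0.0102), and with library size alone as the scaling 1 was called lower. *Cdkn1c* had the highest p-value (log2 fold change -0.67, edgeR adjusted p = 0.0698). Against WT, 3 inhibitors rose and 1 fell in DKO-moderate, and 3 were higher in DKO-severe than DKO-moderate. The fall in DKO-moderate was lost without WT 1, WT 4, DKO-moderate 2, or DKO-moderate 4, and with library size alone. The rises there were 2 without WT 1, WT 2, WT 4, or DKO-moderate 2. Higher in DKO-severe than DKO-moderate were 2 without DKO-moderate 1, DKO-moderate 2, DKO-moderate 3, DKO-severe 2, DKO-severe 3, or DKO-severe 4. That count was also 2 without the filter or with the replicate block, and 4 in DESeq2 and limma voom. With the neutrophil and B cell covariates 3 rose and 0 fell in DKO-severe against WT, so neither *Cdkn1b* nor *Cdkn2d* kept its call, and 1 was higher in DKO-severe than DKO-moderate.

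Genes of the phases after G1 rose together. All 5 S and G2/M cyclins and *Cdk1* rose in both DKO groups against WT and were higher in DKO-severe than DKO-moderate, with median log2 fold changes of 3.08, 1.69, and 1.56. Higher in DKO-severe than DKO-moderate were 3 of 5 without DKO-moderate 1 and 4 of 5 without DKO-moderate 3 or DKO-severe 4. *Ccna2* (cyclin A2) was at 9.74, 34.4, and 104.6 CPM in WT, DKO-moderate, and DKO-severe, and *Cdk1*, the mitotic kinase, at 3.68, 13.9, and 41.0 CPM. The list of 15 other E2F targets included *Mki67* and *Top2a*, which are not confined to S phase. Its median on the log2 scale was 1.78 in DKO-severe against WT. Of the 15, 14 rose in DKO-severe against WT, 9 rose in DKO-moderate against WT, and 10 were higher in DKO-severe than DKO-moderate. The last count was 6 without DKO-moderate 1 or DKO-moderate 3 and reached 14 without DKO-severe 2. *Mcm6*, a subunit of the replicative helicase, rose from 120.2 to 422.8 CPM (log2 fold change 1.81, SE 0.15, edgeR adjusted p = 5.66e-06), and *Cdt1*, a helicase loader, was at 47.6 and 47.3 CPM in WT and DKO-severe (log2 fold change -0.01, edgeR adjusted p = 0.935).

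In the MuvB complex, which works with p107 and p130, and its partner B-Myb, 1 of 6 listed genes was higher in each comparison, and it was *Mybl2* (B-Myb), at 2.64, 6.39, and 23.4 CPM, while *Lin37* was at 26.7, 30.0, and 26.0 CPM. Of 10 genes of CDK activation and cyclin turnover, 3 rose and 4 fell in DKO-severe against WT, a split that depended on the scaling, since with library size alone 5 rose and 0 fell. *Wee1*, an inhibitory kinase of CDK1 and CDK2, had the lowest p-value (4.11, 10.2, and 26.8 CPM in WT, DKO-moderate, and DKO-severe), and *Ccnh*, the cyclin of the CDK-activating kinase, the highest (31.0, 34.1, and 30.7 CPM). Named after their values were seen, the others that rose were *Skp2* (1.17 on the log2 scale) and *Cks1b* (2.11), which act in the turnover of p27, and those that fell were *Cdk7* (-0.34), *Mnat1* (-0.45), *Cdc37* (-0.36), and *Ambra1* (-0.27), the last of which directs the degradation of D-type cyclins. The last list held 8 further cyclins and CDKs of mixed roles. Of these, 7 were found and tested (*Cdk3* was not analysed here), of which 1 rose and 2 fell in DKO-severe against WT. *Cdk19* had the lowest p-value, with log2 fold changes of -0.46 in DKO-severe (SE 0.11, edgeR adjusted p = 0.00447) and in DKO-moderate (edgeR adjusted p = 0.0157), and *Ccni* the highest (log2 fold change 0.02, edgeR adjusted p = 0.876). The others past the threshold in DKO-severe were *Ccng1* (0.30) and *Ccng2* (-0.43), named after their values were seen. Medians on the log2 scale in DKO-severe against WT were close to that over all genes (-0.01) in 3 lists. They were 0.015 for MuvB and B-Myb, 0.069 for CDK activation and cyclin turnover, and 0.021 for the further cyclins and CDKs. Among the further cyclins and CDKs 2 rose without WT 3, DKO-moderate 4, or DKO-severe 4, and 2 rose and 0 fell without WT 3, DKO-severe 1, and DKO-severe 2 together. With the neutrophil and B cell covariates, 0 of the 7 were called in DKO-severe against WT, 3 genes of CDK activation and turnover rose and 1 fell there, and *Mybl2* was not called in DKO-severe against DKO-moderate. In the same fit the counts higher in DKO-severe than DKO-moderate were 2 of 10 E2F and DP factors, 0 of 5 S and G2/M cyclins and *Cdk1*, and 2 of 15 E2F targets, and against WT 6, 5, and 11.

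Likeness was measured as Pearson's r of log2 CPM over the 12 libraries among 9790 genes, as a description, since the libraries share their groups. For *Ccne2* the most alike genes were *Neil3*, a DNA glycosylase of dividing cells (r = 0.985), and *Slbp*, which binds histone mRNA in S phase (r = 0.985), and for *Ccne1* they were *Lancl2* (r = 0.965) and *Gmnn*, the inhibitor of replication licensing (r = 0.963). *Cdk6* was most like *Nf2* (r = 0.989) and *Bmpr2* (r = 0.988). These 6 genes most like the members that rose were themselves lowest in WT and highest in DKO-severe, as *Nf2* was at 60.2, 92.1, and 148.7 CPM. *Cdk4* was most like *Mmadhc* (r = 0.976) and *Med8* (r = 0.974), and *Cdk2* like *Pa2g4* (r = 0.876) and *Dek* (r = 0.843). The D-type cyclins were most like *Runx3* (r = 0.918) and *Vrk2* (r = 0.912) for *Ccnd2*, and *Pigc* (r = 0.936) and *Dnaja2* (r = 0.926) for *Ccnd3*. Among the pocket proteins, *Rb1* was most like *Ralgapa1* (r = 0.939) and *Pdpr* (r = 0.904), *Rbl1* like *Anapc1* (r = 0.954) and *Ankrd27* (r = 0.900), and *Rbl2* like *Mbnl2* (r = 0.949) and *Rabep1* (r = 0.948).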

How the data were processed

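RNA was sequenced as directional read pairs. The authors aligned reads to mm10 with STAR 2.7.11, keeping reads with 1 position, and deposited raw counts per gene from htseq-count, reverse-stranded, without normalization. The HTSeq version and the annotation behind the counts are not given in the sources used here. Records without a gene (18.5% to 23.7% per library) were left out. The 10 genes and all lists were chosen with earlier results of these data known.

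Genes with at least 10 reads summed over a group (16035) were tested with edgeR 4.0.16 (TMM scaling, 1 quasi-likelihood fit over 12 libraries, Benjamini-Hochberg threshold 0.05). DESeq2 1.42.0, limma voom 3.58.1, other scalings, filters, covariates, and libraries left out were alternatives. Standard errors are the log2 fold change divided by the square root of F. Exon lengths and gene coordinates come from GENCODE vM21 by symbol, and promoter windows from RefSeq starts. Exons of all members but *Ccne1* and *Rbl1* overlap genes of the opposite strand, which stranded counting separates. On simulated data for DKO-severe against WT (14558 genes, 200 changed by 1.5 on the log2 scale), edgeR recovered 81.5% with 5.8% false calls. No library was a copy of another of its group (smallest chi-square between them, 21.6 per degree of freedom). From each pathway list the genes with the lowest and highest p-value in DKO-severe against WT are named, with others marked as chosen later.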

Additional observations from a re-analysis of the deposited data

Results flagged for a closer look

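*Ccne2* in WT 3 was 2.645 CPM, against 1.41 to 1.58 CPM in the other WT libraries, a gap that exceeded Dixon's 95% limit for 4 samples. It was 1 of 42 groups of 4 values examined, where chance alone flags about 1 in 20. WT 3 also held summed B cell, monocyte and macrophage, and plasma cell genes at 200, 205, and 89.1 CPM, with the other WT libraries at most at 2.94, 16.2, and 1.86 CPM, and their part in the *Ccne2* value was not tested.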

How the results depend on the processing

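*Ccne2* and *Cdk6* against WT in both DKO groups and *Ccne1* in DKO-severe against WT kept their calls in 23 of 23 alternatives, and *Ccne1*, *Ccne2*, and *Cdk6* in DKO-severe against DKO-moderate in 22 of 23. Members called in DKO-severe against WT were 5 in DESeq2, limma voom, edgeR with DESeq2's size factors, and edgeR on the groups compared, 6 with library size alone, and 3 to 5 with each library left out (5 without DKO-severe replicate 2). The added ones were *Cdk4* with *Cdk2*, *Ccnd2*, or *Ccnd3*. In simulated data DESeq2 made 18.6% false calls, edgeR 5.8%, and limma voom, which also called 5 members in the real data, 5.3%. There only 200 of 14558 genes were changed, and counts were drawn with edgeR's estimates of spread. In the real comparison 8428 of 16035 genes were called, so these shares do not carry over to it. With 1 library left out, members called were 2 to 3 in DKO-moderate against WT and 3 to 4 in DKO-severe against DKO-moderate, where covariates for neutrophil and B cell genes left 0.

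Genes called in DKO-severe against WT were 8428, but 2995 with those covariates, and 7253 to 9006 with 1 library left out. In DKO-moderate against WT 2734 were called, and 1616 to 2920 with 1 library left out (1616 without WT replicate 1, 1707 without WT replicate 2). In DKO-severe against DKO-moderate 3217 were called, but 6126 in limma voom, 188 with the covariates, 2055 without WT 3, DKO-severe 1, and DKO-severe 2, and 1646 to 3670 with 1 library left out (1646 and 1815 without DKO-moderate 1 and 3, and 1971, 1997, and 1989 without DKO-severe 1, 3, and 4). Library size alone moved the median of all genes in DKO-severe against WT from -0.01 to 0.18 and the calls from 4270 higher and 4158 lower to 5460 and 2756. With a term for Y-linked genes, 8362, 2222, and 3185 genes were called in the 3 comparisons. In that fit no member lost a call and 1 call was gained. Libraries shared only a replicate number: residuals of same-numbered libraries correlated at a median r of -0.034, 2 of 12 libraries correlated best with one of their own number, and with the replicate block 7794, 2201, and 2321 genes and 4, 2, and 3 members were called in the 3 comparisons. The causes were not tested.

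Values that changed sign were small and were not called in either fit. In DKO-severe against WT these were *Rbl1* (0.09 with library size alone, 0.21 with the covariates, -0.17 to 0.0005 with 1 library left out), *Rbl2* (0.05 with the covariates), and *Rb1* (-0.0019 to 0.11 with 1 library left out). In DKO-severe against DKO-moderate they were *Ccnd2* (0.0059 in DESeq2 and with its size factors, 0.04 with library size alone, 0.07 with the covariates, -0.22 to 0.02 with 1 library left out), *Cdk4* (-0.01 with the covariates, -0.04 to 0.18 with 1 library left out), *Rbl1* (-0.002 in limma voom), and *Rbl2* (0.02 with library size alone, 0.09 with the covariates). The ratios kept direction and side of the threshold with 1 read added, and with 1 library left out the difference from WT in DKO-severe ran from 1.81 to 2.31 for *Ccne2* to *Ccne1*, 1.83 to 2.08 for *Cdk6* to *Cdk4*, and 0.50 to 0.58 for *Ccnd2* to *Ccnd3*.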
